A study of Homo sapiens with 2 samples.

Results

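CpG methylation was examined at 10 genes of the BCL2 family: BCL2, BCL2L1, MCL1, BCL2A1, BAX, BAK1, BCL2L11, BID, PMAIP1 and BBC3. They were 10 of 20136 protein-coding genes in the annotation. Their members in the data were the CpGs within 2000 bp on either side of each annotated transcription start site (TSS) and those in the rest of the gene body, 7133 of 28217009 CpGs listed on nuclear chromosomes. The samples were 2 established human acute myeloid leukaemia (AML) cell lines, each sequenced once after bisulfite conversion of genomic DNA and neither treated. OCI-AML3 carried a mutant DNMT3A, a heterozygous missense change in a de novo DNA methyltransferase, and OCI-AML5 was wild type for DNMT3A. The comparison asked where the mutant line had less methylation. Each line comes from a single donor and had no replicate, so the DNMT3A genotype cannot be told apart from every other difference between the lines, and expression was not analysed here.

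BCL2 family proteins decide whether the outer mitochondrial membrane is opened during apoptosis. Anti-apoptotic members hold the effectors BAX and BAK1 in check, and BH3-only members, which respond to stress and to lost survival signals, bind the anti-apoptotic proteins or activate the effectors directly. BCL2 and MCL1 are widely needed for survival of AML cells, and BCL2 is the target of the drug venetoclax. CpG-rich promoters are usually unmethylated in normal and malignant cells, whereas gene bodies are usually methylated.

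In bisulfite sequencing an unmethylated cytosine is read as thymine, so the methylation level of a CpG is the percentage of its calls that are methylated. Levels below are means over CpGs with more than 5 calls in both lines, and differences are OCI-AML3 minus OCI-AML5 in percentage points. Calls totalled 902802339 in OCI-AML3 and 894828667 in OCI-AML5, and the median CpG had 27 and 30. At these medians a level below 11.1% in OCI-AML3 or 10.0% in OCI-AML5 rests on fewer than 3 methylated calls. Genome-wide, the mean over CpGs was 67.6% and 75.2% (OCI-AML3 first), so a lower level in OCI-AML3 was the usual direction. Single CpGs were called when a two-sided Fisher's exact test on the calls gave an adjusted p under 0.05 (Benjamini-Hochberg over 24454751 CpGs). This test compares 2 libraries and covers read sampling only. It called 14.7% of all CpGs lower in OCI-AML3 and 3.86% higher. Intervals are Wilson 95% intervals on pooled calls, which also cover counting error only. TSS windows of cell type markers gave 11.0% and 11.1% at SPI1, a myeloid factor, 76.8% and 83.5% at PTPRC, which encodes the leukocyte antigen CD45, 75.4% and 91.4% at the T-cell gene CD3E, and 79.7% and 75.7% at the epithelial gene EPCAM. Of these markers only SPI1 had low methylation in both lines. The windows of the myeloid genes MPO (90.8% and 91.9%) and CD33 (62.2% and 59.0%) were methylated in both lines, so this list does not mark the lines as myeloid by methylation.

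Across the TSS windows of the 10 genes, methylation was 26.5% in OCI-AML3 and 31.4% in OCI-AML5 over 2777 CpGs, a difference of -4.95 points. Of these CpGs, 290 (10.4%) were called lower in OCI-AML3 and 36 (1.30%) higher. Over the TSS windows of all protein-coding genes, 12.5% of CpGs were called lower and 4.12% higher, so CpGs called lower made up no larger a share at the BCL2 family than elsewhere. By gene, 9 of 10 members had a lower window level in OCI-AML3, against 88.3% of 19767 genes. The median difference was -5.07 points for the 10 genes and -4.83 for all genes. As shares of pooled calls, which weight deep CpGs more, the medians were -9.71 and -8.39. Only BCL2A1 was lower by 20 points or more, a size reached by 6.54% of all genes, and none was higher by as much, against 1.04% of all genes. Under both averagings the members' median lay near that of all genes, 0.24 and 1.32 points below it, while the members differed widely among themselves, from -39.8 points at BCL2A1 to 2.67 points at BCL2. The study lists BCL2A1 and BAK1 among genes with a less methylated promoter in these same samples and higher OCI-AML3 expression in separate microarray data. Their direction of methylation is therefore not independent evidence. With 8 genes left after both were removed, the median was -4.67.

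**Figure D1:**
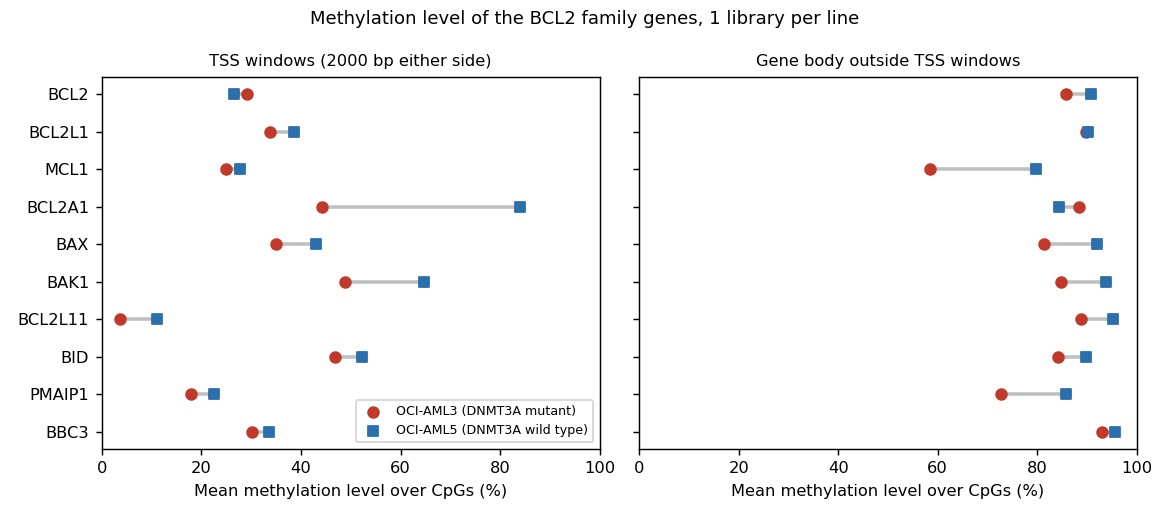
Mean methylation level over CpGs (percent, horizontal axes from 0 to 100) of each BCL2 family gene in OCI-AML3 (circles) and OCI-AML5 (squares), for TSS windows on the left and gene bodies outside them on the right, with 1 library per line and no error bars. BCL2A1 shows the widest gap on the left (44.3% and 84.1%) and MCL1 the widest on the right (58.4% and 79.7%).

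**Figure D2:**
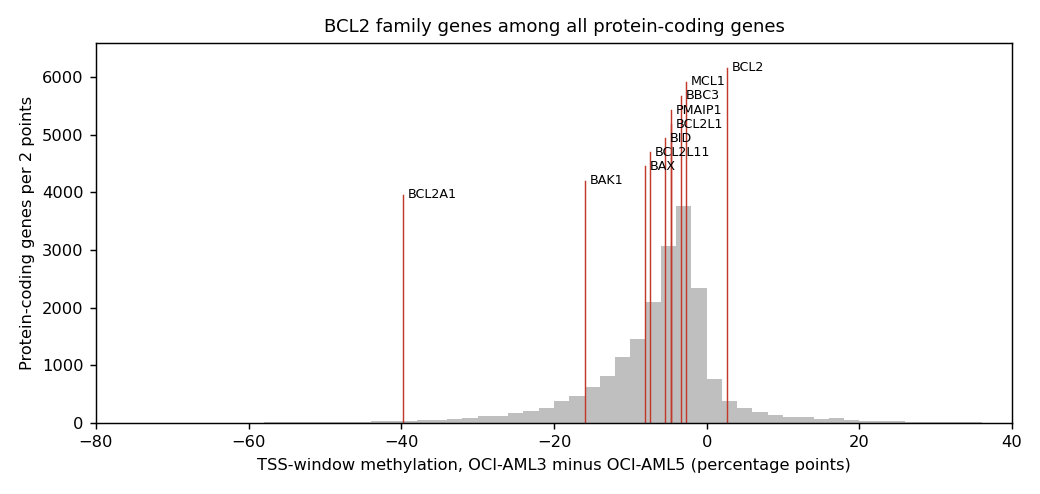
Histogram of the TSS-window difference (OCI-AML3 minus OCI-AML5, percentage points) of 19767 protein-coding genes, with the number of genes per 2 points on the vertical axis. Vertical lines mark the 10 BCL2 family genes, at heights that only separate the names. BCL2A1 stands at -39.8 and BAK1 at -15.9, and the other 8 lie between -8.03 and 2.67.

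Around the start sites themselves the family was unmethylated in both lines at 8 of 10 genes. A CpG island, a stretch of at least 500 bp with 55% G and C or more and an observed over expected CpG ratio of 0.65 or more, covered the canonical TSS of every member except BCL2A1 and BAK1. The mean levels of these 8 islands were 0.126% to 4.98% in the mutant line, with 0.510% to 7.82% in the wild-type line. Within 500 bp of the canonical TSS, 13 of 774 CpGs of the 10 genes (1.68%) were called lower and 2 higher, against 8.91% and 4.51% for all protein-coding genes. Mean levels there were 1.84% and 2.69% for the 10 genes and 14.2% and 16.6% for all genes. The low level in OCI-AML5 left little room for lower calls at most members, so these shares are not on an equal footing. Of those 13 CpGs, 7 lay at BCL2A1, 3 at BAX, 2 at BBC3 and 1 at BCL2. In the flank 501 to 2000 bp upstream, 117 of 552 CpGs (21.2%) were called lower and 5 higher, against 16.6% and 4.24% for all genes. Mean levels were 33.0% and 44.7%, against 49.2% and 57.1% for all genes. In the same distance downstream, 54 of 560 (9.64%) were called lower and none higher, against 17.1% and 6.51%. Mean levels were 11.0% and 17.0%, against 40.4% and 47.1% for all genes. The calls thus lay mainly outside the 500 bp around the start, and most of the upstream ones came from BCL2L11 (52), BCL2A1 (21), BCL2L1 (15) and PMAIP1 (13).

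**Figure D3:**
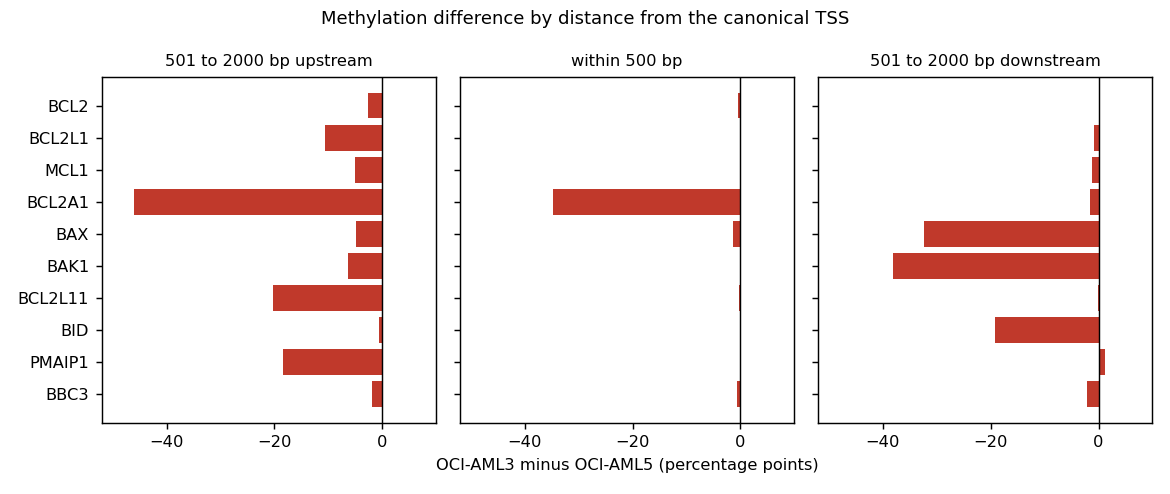
Difference in mean methylation (OCI-AML3 minus OCI-AML5, percentage points, horizontal axes) of each BCL2 family gene in 3 zones around its canonical TSS, with 1 bar per gene starting at 0 and no error bars. BCL2A1 (-46.1), BCL2L11 (-20.3) and PMAIP1 (-18.3) are lowest upstream, BCL2A1 (-34.7) is the one long bar within 500 bp, and BAK1 (-38.1), BAX (-32.3) and BID (-19.1) are lowest downstream.

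Among the anti-apoptotic members, BCL2A1 differed most. It encodes BFL-1, a short-lived survival protein of haematopoietic cells that is induced by NF-kB. The gene lies on chromosome 15 (80253234 to 80263538, minus strand, GRCh37). Its TSS window averaged 44.3% in OCI-AML3 and 84.1% in OCI-AML5 over 48 CpGs, and pooled calls gave 30.6% (28.5 to 32.8) and 82.5% (80.6 to 84.2). The difference of -39.8 points was exceeded in this direction by 142 of 19767 genes (0.718%). Of the 48 CpGs, 28 were called lower and none higher. With windows of 1000 bp the difference was -61.3. Depth was similar in both lines, 35.9 and 35.5 calls per CpG. A single run of 23 consecutive called CpGs, 385 to 1288 bp upstream of the TSS, had levels of 21.6% and 90.3%. At its start, 385 bp upstream, 0 of 37 calls were methylated in OCI-AML3 and 14 of 23 in OCI-AML5. At 1074 bp upstream the counts were 0 of 64 and 55 of 56 (adjusted p = 2.3e-30, Fisher's exact test). Beyond 1288 bp upstream the levels met again, as at 1369 bp, where 10 of 10 and 19 of 19 calls were methylated. Downstream of the TSS, 2 CpGs at 134 and 175 bp were nearly unmethylated in both lines (0% in OCI-AML3, 0% and 6.25% in OCI-AML5), and the coding exons had 27.4% and 56.4% over 9 CpGs. In intron 1 the order was the other way, 90.3% and 85.3% over 82 CpGs, so the lower level did not extend over the gene.

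BCL2L1, which encodes the survival protein BCL-XL and its pro-apoptotic isoform BCL-XS, lies on chromosome 20 (30252255 to 30311792, minus strand). Its TSS windows averaged 33.9% in OCI-AML3 and 38.6% in OCI-AML5 over 225 CpGs, with 17 CpGs called lower and 4 higher. The lower calls were concentrated in 1 run of 12 CpGs, which lies beyond the most upstream TSS and had levels of 19.0% and 84.0%. The neighbouring island, which covers the most upstream starts, was unmethylated in both lines (0.0404% and 0.237% over 89 CpGs). As a share of pooled calls the window difference was -8.0 points. The lncRNA ABALON has its own TSS inside these windows, 1361 bp from the canonical TSS. The gene body was nearly the same in both lines (89.8% and 90.1%, 533 CpGs). One run went the other way: 5 CpGs in intron 2, 46834 bp downstream of the TSS, had 70.5% in OCI-AML3 and 2.59% in OCI-AML5. Pooled calls of that run gave 70.2% (63.5 to 76.1) and 2.50% (1.07 to 5.72).

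MCL1, a short-lived survival protein needed by many myeloid leukaemias, lies on chromosome 1 (150533371 to 150552214, minus strand). The island over its TSS was at 0.236% in OCI-AML3 and 0.510% in OCI-AML5 over 136 CpGs, and 1 of these was called lower. The TSS-window difference of -2.67 points was -1.63 with windows of 1000 bp, -1.11 with the most upstream TSS and -1.16 with the canonical TSS. The canonical transcript averaged 5.12% and 8.40%. The annotated gene span, however, continues 13663 bp beyond the end of that transcript, and there the 225 CpGs averaged 62.8% and 81.8% with 73 called lower and 1 higher. All 5 runs of MCL1 lay in this extension. The longest in CpG number of any member held 38 CpGs over 731 bp, with 20.7% and 81.1%, and pooled calls gave 18.5% (17.2 to 19.9) and 81.3% (79.5 to 82.9). It overlaps exons of the lncRNAs ADAMTSL4-AS1 and ENSG00000289457, and the gene-body difference of MCL1, -21.3 points, thus rests largely on CpGs outside the canonical transcript. The lncRNA ENSG00000290074 starts in the MCL1 TSS window, 307 bp from the canonical TSS. The part of the run with the most called CpGs, 20 of 20, lies 17758 to 18010 bp downstream of the TSS (chr1:150534076-150534328, GRCh37, minus strand). Its median level was 7.72% in OCI-AML3 (highest 17.8%) and 80.2% in OCI-AML5 (lowest 41.7%). The part was chosen for its number of called CpGs, so the distance between the lines there is not further support. It is shown with the called CpGs in capitals.
MCL1: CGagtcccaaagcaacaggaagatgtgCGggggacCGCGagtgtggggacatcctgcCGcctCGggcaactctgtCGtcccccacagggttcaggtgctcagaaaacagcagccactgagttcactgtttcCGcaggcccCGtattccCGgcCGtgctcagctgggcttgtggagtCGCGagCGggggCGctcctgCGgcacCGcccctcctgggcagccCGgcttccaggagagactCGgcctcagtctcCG

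BCL2 itself was the one member with a higher TSS-window level in OCI-AML3 (29.2% and 26.6% over 418 CpGs, 2.67 points), and the direction depended on which start sites entered. The gene covers 196783 bp of chromosome 18 (60790579 to 60987361, minus strand), and its 7 annotated starts formed 3 separate windows. The window with the canonical TSS averaged 3.75% and 6.30% over 292 CpGs, with 13 called lower and none higher. The window around the internal start at 60805644, in intron 2, averaged 87.7% and 51.6% over 36 CpGs, with 15 called higher and none lower. The third window, also in intron 2, averaged 88.5% and 82.3% over 90 CpGs, with 10 called higher and 2 lower. With the canonical TSS alone the difference was -1.12 points, with the most upstream TSS alone -2.81, with at least 10 calls 1.45, with windows of 1000 bp 5.54, and as a share of all pooled calls 23.0% (22.3 to 23.6) against 30.2% (29.3 to 31.0). The higher calls were compact. In 1 run of 9 CpGs near the internal start, levels were 90.7% and 14.7%, and a neighbouring run of 5 CpGs had 95.3% and 6.14% on only 40 and 108 calls. At 60805432, 32 of 33 calls were methylated in OCI-AML3 and 1 of 34 in OCI-AML5 (adjusted p = 9.8e-15, Fisher's exact test). The 9-CpG run was chosen for its number of called CpGs, so the distance between the lines there is not further support. It held the most CpGs of the family's runs with a higher level in OCI-AML3 (chr18:60805252-60805546, GRCh37, minus strand, 181456 to 181750 bp downstream of the canonical TSS). Again every CpG was called and is in capitals.
BCL2: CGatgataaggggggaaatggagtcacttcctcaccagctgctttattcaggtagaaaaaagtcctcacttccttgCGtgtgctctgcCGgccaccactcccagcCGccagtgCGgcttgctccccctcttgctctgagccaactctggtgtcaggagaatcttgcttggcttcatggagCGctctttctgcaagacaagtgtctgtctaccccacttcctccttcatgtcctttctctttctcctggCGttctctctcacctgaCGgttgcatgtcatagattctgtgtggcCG

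Along the rest of BCL2 the usual direction returned. The gene body averaged 85.7% in OCI-AML3 and 90.7% in OCI-AML5 over 1774 CpGs, with 149 called lower (8.40%) and 18 higher (1.01%). Gene bodies of all protein-coding genes had 13.4% lower and 2.95% higher. There were 12 runs lower, 11 of them in intron 2, with lengths of 3 to 13 CpGs. The longest had 23.5% and 89.7%, 69957 bp downstream of the TSS. A run of 11 CpGs centred 2087 bp upstream of the canonical TSS had 12.0% and 76.3%.

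**Figure D4:**
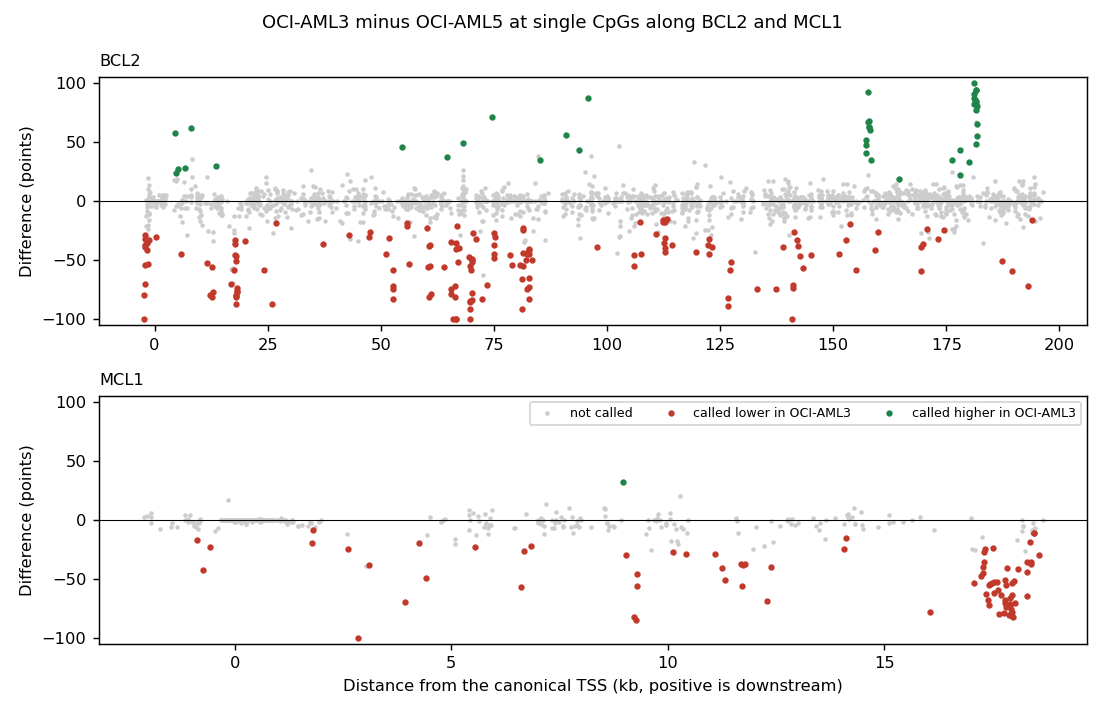
Difference in methylation level at single CpGs (OCI-AML3 minus OCI-AML5, percentage points, vertical axes) against distance from the canonical TSS (kb, positive is downstream) for BCL2 and MCL1, with 1 point per CpG coloured by its call. The CpGs called higher at BCL2 gather near the far end of intron 2, and those called lower at MCL1 gather beyond 17 kb, past the canonical transcript.

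Of the effectors, which open the mitochondrial membrane once activated, BAK1 had the larger TSS-window difference. BAK1 lies on chromosome 6 (33540324 to 33548070, minus strand), inside the transcribed pseudogene GGNBP1 on the other strand. Its window averaged 48.8% and 64.7% over 90 CpGs, with 19 called lower and 3 higher, and 11.0% of all genes had a lower difference. Within 500 bp of the TSS the lines were alike (21.3% and 21.4%). From 501 to 2000 bp downstream, in intron 1, the 32 CpGs averaged 37.6% and 75.7% with 17 called lower. The run of 10 CpGs centred 978 bp downstream had 6.12% and 80.7%, and a second, 3043 bp downstream in intron 2, had 9.51% and 82.0% over 6 CpGs.

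BAX, on chromosome 19 (49458072 to 49465055, plus strand), also had its difference downstream of the start. Its island averaged 4.98% and 6.40% over 79 CpGs, with 3 called lower, at 252, 277 and 407 bp upstream. At 252 bp upstream of BAX, 1 of 80 calls was methylated in OCI-AML3 and 33 of 60 in OCI-AML5. From 501 to 2000 bp downstream the 28 CpGs averaged 55.5% and 87.8%, and a run of 12 CpGs, 834 to 1189 bp downstream, had 26.9% and 91.1%. Intron 1 was unmethylated in both lines (0.0717% and 0.134%). In intron 3 the levels were 71.7% and 98.0% over 7 CpGs and in intron 4 they were 82.6% and 91.2% over 86 CpGs, so the difference narrowed with distance from the island.

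BCL2L11 had the most runs of the BH3-only members. It encodes BIM, which binds all the main anti-apoptotic proteins. The gene starts inside a 6376-bp CpG island on chromosome 2 (111874810 to 111881185, gene on the plus strand), the longest of the family. From the canonical TSS onward the 289 island CpGs were unmethylated (0.470% and 1.07%). In the 3681 bp of the island upstream of that TSS, 280 CpGs averaged 1.92% in OCI-AML3 and 14.8% in OCI-AML5, and pooled calls gave 1.45% (1.28 to 1.63) and 14.8% (14.2 to 15.5). In OCI-AML5, 76 of these CpGs had a level between 20% and 66% and 5 were above 66%. OCI-AML3 had 8 and 0 such CpGs. From these counts, a share of methylated cells and a share of methylated alleles within each cell cannot be told apart. There were 86 CpGs called lower and 1 higher. The calls fell into short runs: 14 of the 15 runs of BCL2L11 lay here, with 3 to 9 CpGs each. A run can end at 1 CpG that is not called, so run lengths do not measure breaks in the methylation itself. A run 1767 bp upstream had 0.70% and 38.7% over 9 CpGs, and one 1376 bp upstream had 4.67% and 69.1% over 5. The depth at this gene was unequal, 60.5 calls per CpG in OCI-AML3 and 37.3 in OCI-AML5 over its TSS windows, and the part of depth was not tested. The 3' end of the ACOXL gene overlaps the first 4 of these runs with an exon, and an intron of MIR4435-2HG spans them all. In the stretch below, capitals mark CpGs called within runs, and the other CpGs, some of them also called, are in lower case (chr2:111876608-111876902, GRCh37, plus strand, 1883 to 1589 bp upstream of the canonical TSS).
BCL2L11: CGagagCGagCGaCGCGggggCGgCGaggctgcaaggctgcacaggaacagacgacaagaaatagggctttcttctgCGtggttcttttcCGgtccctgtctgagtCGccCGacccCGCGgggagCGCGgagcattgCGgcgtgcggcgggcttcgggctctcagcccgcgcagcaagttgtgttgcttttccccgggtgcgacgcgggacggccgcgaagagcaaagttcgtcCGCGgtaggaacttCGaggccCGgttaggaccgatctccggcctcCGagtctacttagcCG

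Of its 39 CpGs, 22 were called within runs and are in capitals. Called CpGs outside runs are in lower case and not among the 22. The 22 had levels of 0% to 3.88% in OCI-AML3 and 9.43% to 52.0% in OCI-AML5, with medians of 0.918% and 36.0%. They were picked by their calls, so the distance between the lines at them is not further support. Over all 39 CpGs the levels were 1.10% and 22.7%. Outside the island, the BCL2L11 body was methylated in both lines (88.8% and 95.2% over 391 CpGs).

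PMAIP1 encodes NOXA, which binds MCL1 and BFL-1 (the BCL2A1 product) and is induced by p53. It lies on chromosome 18 (57567228 to 57571537, plus strand). Its TSS window averaged 17.9% and 22.5% over 172 CpGs (-4.63 points, and -10.9 as a share of pooled calls), and all 13 CpGs called lower lay between 1160 and 671 bp upstream, with none called higher. Farther upstream both lines were methylated, and from there to the gene both were unmethylated, with 0.0563% and 0.168% within 500 bp of the TSS. The border between these states lay nearer to the gene in OCI-AML5. At 861 bp upstream of PMAIP1, 4 of 69 calls were methylated in OCI-AML3 and 67 of 68 in OCI-AML5 (adjusted p = 1.3e-29, Fisher's exact test). At 671 bp upstream, 0 of 82 and 49 of 72 were. The 2 runs of this border had 16.4% and 86.8% (7 CpGs) and 0.430% and 57.7% (5 CpGs). The border is printed from 928 to 670 bp upstream (chr18:57566300-57566558, GRCh37, plus strand), where 11 of 12 CpGs were called.
PMAIP1: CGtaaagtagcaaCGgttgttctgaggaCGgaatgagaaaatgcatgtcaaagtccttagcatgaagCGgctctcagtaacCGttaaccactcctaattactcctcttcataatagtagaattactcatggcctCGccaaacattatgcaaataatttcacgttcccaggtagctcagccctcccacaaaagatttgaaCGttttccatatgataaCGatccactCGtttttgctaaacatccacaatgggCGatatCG

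The first called CpG of the printed PMAIP1 sequence had 32.0% in OCI-AML3 and 96.3% in OCI-AML5, and the last had 0% and 68.1%. Among these called CpGs the lowest OCI-AML5 level, 35.1%, was at 794 bp upstream of PMAIP1, where OCI-AML3 had 1.25%.

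**Figure D5:**
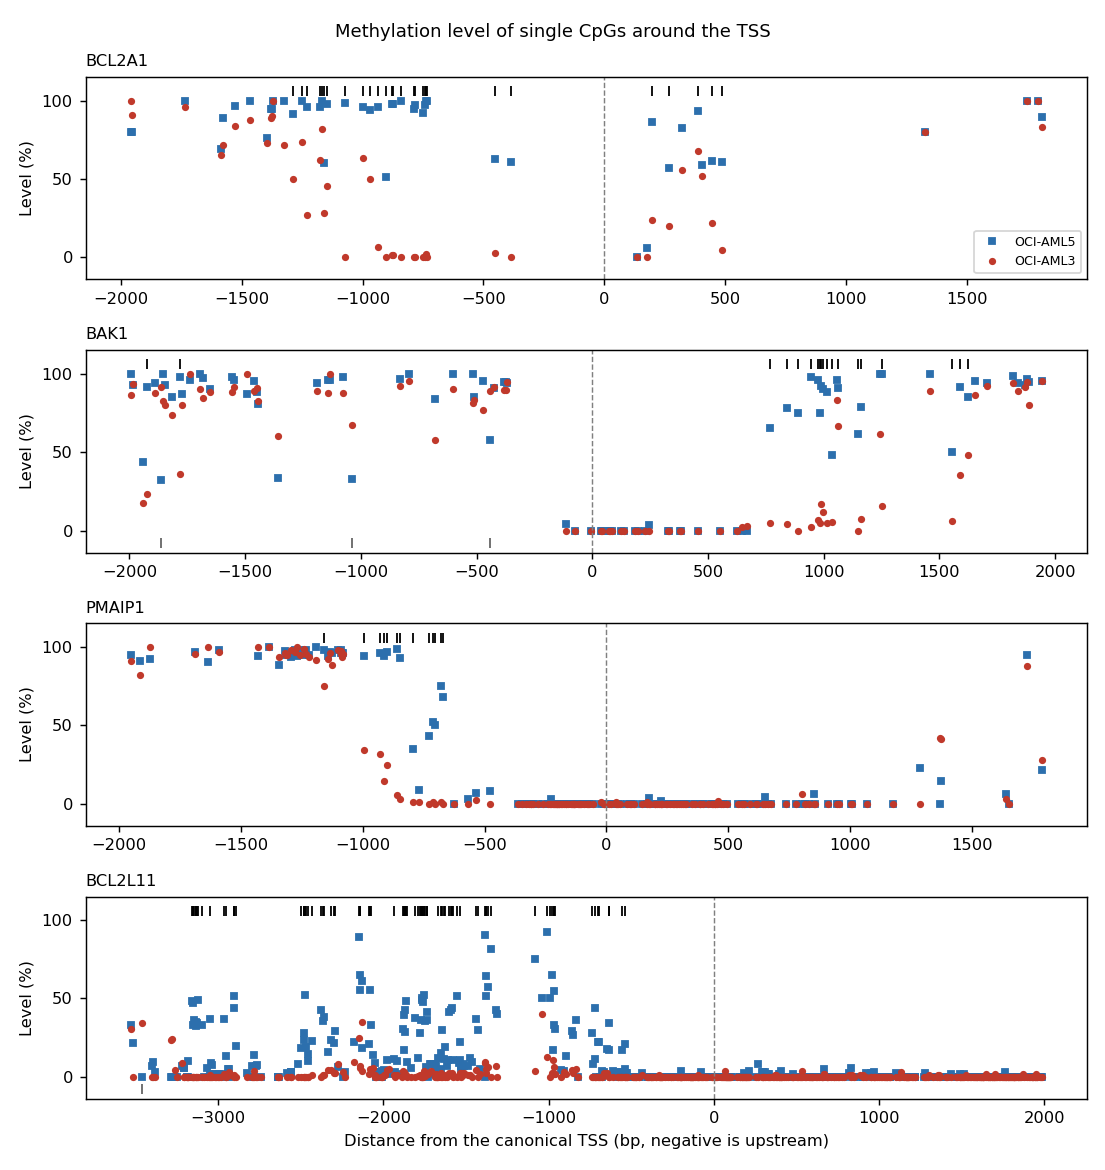
Methylation level (percent, vertical axes) of single CpGs against distance from the canonical TSS (bp, negative is upstream) at BCL2A1, BAK1, PMAIP1 and BCL2L11 in OCI-AML3 (circles) and OCI-AML5 (squares). Ticks at the top mark CpGs called lower in OCI-AML3 and ticks at the bottom those called higher, and the dashed line is the TSS. The lines part at one block upstream at BCL2A1 and PMAIP1 and downstream at BAK1, and at BCL2L11 the calls are scattered over the upstream island.

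BID, which is cut by caspase-8 and carries a death-receptor signal to mitochondria, lies on chromosome 22 (18216904 to 18257536, minus strand). Its TSS windows averaged 46.9% and 52.3% over 300 CpGs, with 29 called lower and 1 higher. The difference of -5.43 points was -1.93 with windows of 1000 bp, -2.67 with the most upstream TSS and -9.24 as a share of pooled calls. The island over the TSS was at 0.398% and 0.668%. All 8 runs lay in intron 1, and the 3 nearest the start, centred 1629, 1934 and 2329 bp downstream, had 17.8% and 80.9%, 5.45% and 48.0%, and 45.4% and 89.6%. The run centred 10314 bp downstream overlaps MIR3198-1. Other introns of BID differed less, by -3.46 points in intron 2, -3.96 in intron 3 and 1.99 in intron 4.

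BBC3, which encodes the p53 target PUMA, lies on chromosome 19 (47724079 to 47736023, minus strand). The island over its canonical TSS was at 0.662% and 1.56% over 181 CpGs, with 4 called lower. Over all its TSS windows the difference was -3.39 points, but -10.2 as a share of pooled calls, -1.32 with the most upstream TSS and -1.30 with the canonical TSS. A second window, around the internal start at 47730446, averaged 8.06% and 15.1% over 209 CpGs with 31 called lower, and it held 5 of the 6 runs. In the run over a coding exon 4512 bp downstream, 6 CpGs had 0% and 41.3%, with 0 of 373 pooled calls methylated in OCI-AML3 (Wilson upper bound 1.02%). The next runs, 4385 and 4224 bp downstream in intron 2, had 0.435% and 43.8% and 1.91% and 52.6%, and the second of them overlaps MIR3191, whose own start lies in this window. As at BCL2L11, OCI-AML5 was partly methylated where OCI-AML3 was near 0. The third window, near the end of the gene, was methylated in both lines (93.7% and 94.5%) with no CpG called.

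In gene bodies outside TSS windows the 4029 CpGs of the 10 genes averaged 84.8% in OCI-AML3 and 90.3% in OCI-AML5, with 384 called lower (9.53%) and 44 higher (1.09%), against 13.4% and 2.95% for all protein-coding genes. The median difference was -6.00 points for the 10 genes and -4.85 for 17267 genes. Over whole gene spans the order was the other way, -4.51 for the 10 genes and -4.97 for all genes. By gene, 9 of 10 members had a lower body level in OCI-AML3, against 92.4% of all genes. MCL1 (-21.3) was the one member lower by 20 points or more, against 7.67% of genes, but over its whole gene span the difference was -12.7 and no member reached 20 points. In gene bodies none was higher by as much, against 0.510%. MCL1 was followed by PMAIP1 (-13.1, over 19 CpGs, but -2.12 over the whole gene span), BAX (-10.5) and BAK1 (-8.97, and -14.2 over the whole span). BCL2L1 (-0.35) was close to 0, and BCL2A1 (4.01, and 0.58 over the whole span) was the one member with a higher body level in OCI-AML3. The gene bodies of BCL2, BCL2L11, BID and BBC3 differed by -5.01, -6.38, -5.62 and -2.77 points. BCL2A1 had the lowest window difference and the highest body difference of the family.

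Over windows and bodies together there were 59 runs lower in OCI-AML3, with 377 CpGs, and 5 runs higher, with 26 CpGs, a run being at least 3 called CpGs in 1 direction with gaps of at most 300 bp. Genome-wide, 5.29% of tested CpGs lay in runs that were lower and 1.00% in runs that were higher. Runs were defined by the calls, so their levels describe where the calls fell and are not further support for them. The runs lay in TSS windows in 36 of 64 cases. BCL2, with 4 of the 5 higher runs, and BCL2L1, with the other, were the members with runs in both directions.

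By role, the median TSS-window difference was -3.69 points for the 4 anti-apoptotic genes, -12.0 for the 2 effectors and -5.03 for the 4 BH3-only genes, with ranges of -39.8 to 2.67, -15.9 to -8.03 and -7.42 to -3.39. These ranges overlapped for the anti-apoptotic genes and each of the other roles, and no test between roles was made. Among 23 related genes, namely 11 further family members and 12 genes of the mitochondrial death pathway, 21 had a lower window level in OCI-AML3 and 2 a higher one, and none differed by 20 points or more. Their median was -5.25 points, with a range from -18.3 (BOK) to 14.8 (HRK). For all genes 88.3% were lower. Of 5583 CpGs, 629 were called lower and 146 higher, both smaller shares than the 12.5% and 4.12% over all TSS windows. HRK, a BH3-only gene singled out after its values were seen, gave most of the higher calls. The median was -8.35 for the family members and -4.74 for the pathway genes.

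The total depth behind the members differed by region. In the TSS windows of the 10 genes there were 49.4 calls per CpG in OCI-AML3 and 36.5 in OCI-AML5, while gene bodies had 35.2 and 37.1. The part of depth in the calls was not tested.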

How the data were processed

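Genomic DNA of 2 AML lines, 1 library each, was sequenced in paired 100-bp reads after bisulfite conversion. The submitters' processing notes name Bismark, Bowtie 0.12.8 and hg19. For each CpG the authors deposited raw counts of its methylated and of its unmethylated calls, both strands added, and whether duplicate reads were removed is not given in the sources used here. All listed positions on chromosomes 1 to 22 and X fell on CpGs of GRCh37. Genes and transcripts were from GENCODE 44 lifted to GRCh37. CpGs with more than 5 calls in both lines were compared by Fisher's exact test with adjustment over all 24454751 of them. The script was tested on simulated data. Members and gene lists were chosen with earlier results of these data known. All 10 members are named, with any gene starting inside their TSS windows. Related genes were to be named only at 20 points or more, and BOK and HRK are exceptions to this rule. Sequences are reference GRCh37 and exclude UTRs. One marker gene and the sequences of some members are not reported here. Alternatives changed the minimum calls (10), window (1000 bp), start sites, averaging, runs and smoothing (1000 bp either side or 70 CpGs). Software was matplotlib 3.10.9, numba 0.67.0, pysam 0.24.0, pandas 2.3.3, numpy 2.4.6 and scipy 1.17.1 under Python 3.11.15.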

Additional observations from a re-analysis of the deposited data

How the results depend on the processing

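Of 43 comparisons of the summary results with an alternative setting, 26 stayed within 1.5 times the count or, for a median, within a fixed width. That width was the 95% counting error of the difference in pooled call shares. It is a yardstick and not the sampling error of a median. With smoothed profiles the CpGs called lower rose from 290 to 1244 in TSS windows and from 384 to 1662 in gene bodies, and those called higher from 36 to 63 and from 44 to 147. Smoothing called 51.2% of all CpGs lower and 8.84% higher. Windows of 1000 bp left 188 CpGs called lower in TSS windows, and the canonical TSS alone left 184, by construction with fewer CpGs. The CpGs called higher in TSS windows were 9 with the most upstream TSS and 7 with the canonical TSS, since the internal BCL2 starts dropped out. Whole gene spans gave 72 CpGs called higher. The median TSS-window difference of -5.07 became -9.71 as a share of pooled calls, -5.66 with 1000 bp and with the canonical TSS (-8.39, -4.01 and -4.64 for all genes), and -4.67 without BCL2A1 and BAK1. The median gene-body difference of -6.00 became -5.63 with pooled calls and -4.51 over whole gene spans, where all genes had -4.97. Runs of at least 5 CpGs numbered 33 lower and 3 higher. Of 80 comparisons for single genes, 48 stayed within the same width taken on the gene's own pooled calls, and 29 moved beyond it but kept their sign. The other 3 reversed, all at BCL2: -7.19 with pooled calls, -2.81 with the most upstream TSS and -1.12 with the canonical TSS. BCL2A1 stayed lowest, at -61.3 with 1000 bp. The canonical TSS, the omission of BCL2A1 and BAK1 and the all-gene medians under other settings were chosen after seeing the data.

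No paired analysis was possible because each line had 1 library. The same lack of replicates leaves variation between cultures unmeasured. Medians of 27 and 30 calls per CpG limit what single CpGs can show. Sequence variants at CpGs, copy number and repeat placement were not examined.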
